A study of Mus musculus with 18 samples.

Results

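Iron storage and transport was followed through 8 genes chosen by symbol among the 30905 genes of the count tables: Fth1 and Ftl1 (storage), Tfrc, Trf and Slc11a2 (uptake), Slc40a1 (export), and Ireb2 and Aco1 (regulation). Earlier results of these data were known when the genes were chosen. Male Kun Ming mice, an outbred stock, were studied at 8 weeks of age, and nuclei of the prefrontal cortex (PFC) and the hippocampus (Hip) of 9 of them were sequenced as 18 single-nucleus RNA libraries with 10x Genomics 3′ chemistry. The 3 groups of 3 mice were compared: germ-free mice (GF, mice 5, 6 and 7), which carried no microbiota, specific pathogen-free mice (SPF, mice 30, 31 and 32), which carried a conventional one, and colonized germ-free mice (CGF, mice 17, 18 and 19), which were raised germ-free and then housed together with SPF mice. The labels name no engineered allele and no agent given to any mouse. Each mouse gave both regions, 1 library per region, so the p-values of group comparisons below measure the spread between 3 mice of a group.

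Cells take up iron bound to transferrin, the product of Trf, through the transferrin receptor encoded by Tfrc, and the divalent metal transporter encoded by Slc11a2 carries the iron out of the endosome. Iron that is not used at once is held in shells of ferritin heavy chain (Fth1), which oxidises it, and ferritin light chain (Ftl1), and ferroportin (Slc40a1) is the known exporter of iron from the cell. The iron regulatory proteins IRP1, encoded by Aco1, and IRP2, encoded by Ireb2, bind a hairpin in the messenger RNA called the iron-responsive element when iron is short. Bound in the 5′ UTR the hairpin holds translation back, and bound in the 3′ UTR it keeps the transcript stable. IRP1 with an iron-sulfur cluster is instead the cytosolic aconitase. In brain, endothelial cells of the blood-brain barrier are known for transferrin receptor, oligodendrocytes for transferrin and ferritin, and microglia for iron storage.

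The genes lie at chr19:9980598-9985098 (Fth1), chr7:45457944-45459884 (Ftl1), chr16:32608920-32632794 (Tfrc), chr9:103204001-103230444 (Trf), chr15:100387898-100425072 (Slc11a2), chr1:45908068-45926523 (Slc40a1), chr9:54863789-54912530 (Ireb2) and chr4:40143081-40198338 (Aco1) in GRCm38. Their iron-responsive elements are shown because they divide the members by how iron can act on each transcript. The annotated UTRs of the members (GRCm38, GENCODE) were searched on the transcript strand for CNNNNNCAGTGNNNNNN, with at least 4 of 5 base pairs in the upper stem. Matches lay in the 5′ UTR of the storage and export genes, in the 3′ UTR of the uptake genes Tfrc and Slc11a2, and none was found in Trf, Ireb2 or Aco1. A match stood in the 5′ UTR of 0.856% of 20561 genes and in the 3′ UTR of 4.1% of 20937 genes. Each hairpin is printed 5′ to 3′ with the 6-base loop in capitals.
Fth1, 5′ UTR, chr19:9982732-9982760, plus strand: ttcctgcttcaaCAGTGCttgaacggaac
Ftl1, 5′ UTR, chr7:45459779-45459807, minus strand: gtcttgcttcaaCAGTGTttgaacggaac
Slc40a1, 5′ UTR, chr1:45925465-45925493, minus strand: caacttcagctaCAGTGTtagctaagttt
Slc11a2, 3′ UTR, chr15:100395153-100395181, minus strand: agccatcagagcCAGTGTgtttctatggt
Tfrc, 3′ UTR, chr16:32631219-32631247, plus strand: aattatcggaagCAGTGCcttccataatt
Tfrc, 3′ UTR, chr16:32631598-32631626, plus strand: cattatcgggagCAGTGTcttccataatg
Tfrc, 3′ UTR, chr16:32631663-32631691, plus strand: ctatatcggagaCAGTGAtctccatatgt
Tfrc, 3′ UTR, chr16:32631710-32631738, plus strand: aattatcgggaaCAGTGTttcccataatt
The hairpin of Slc11a2 had 4 of the 5 stem pairs. A match in letters is a description of the transcript, and counts of nuclear RNA carry no reading of translation.

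After nuclei with over 10% mitochondrial UMIs were left out, 71398 of 72226 nuclei remained in Hip and 66602 of 67698 in PFC. Any 2 libraries shared 6 to 29 cell barcodes, at most 0.362% of the smaller library. The groups differed in library quality, and for depth, ribosomal protein and mitochondrial shares in opposite directions in the regions. In PFC the GF libraries held a median of 6721 to 7338.5 UMIs per nucleus against 2330 to 3187 in the other groups, and ribosomal protein genes took 0.110% to 0.140% of their UMIs against 0.218% to 0.345%. In Hip the depths were nearer (4593 to 5809.5 in GF and 5444.5 to 7559.5 in the others), and the ribosomal protein share was the higher one in GF, 0.181% to 0.238% against 0.0616% to 0.118%. The mitochondrial share followed the same pattern, at 0.645% to 1.10% in GF and 0.0770% to 0.471% in the others in Hip, and at 0.359% to 0.594% and 1.28% to 3.22% in PFC. The share of the rRNA-linked genes Gm42418 and AY036118 was lower in GF in both regions, 0.0256% to 0.0347% against 0.0616% to 0.179% in Hip and 0.0135% to 0.0208% against 1.22% to 2.45% in PFC. Haemoglobin genes took at most 0.0199% of the UMIs of any library, but their share separated GF from SPF mice, though not from CGF mice. The Hip libraries of GF mice held 0.00525% to 0.0199%, above the SPF range of 0.00148% to 0.00349%, while CGF libraries reached 0.00553%. For PFC the GF range was 0.00685% to 0.0137%, with SPF libraries at most at 0.00334% and CGF libraries up to 0.0126%. The part of this share in the differences between GF and SPF mice was not tested. The ribosomal protein, mitochondrial and rRNA-linked shares separate GF from both other groups in each region, and depth does so in PFC, so in this design they cannot be told apart from the microbiota. Nuclei were clustered by region and named from marker lists, with 3 to 8 of 8 markers raised per named cluster. In PFC different clusters held the nuclei of a type in the groups, for example clusters 2, 5 and 7 for GF excitatory neurons against clusters 0, 1 and 3 for the others, cluster 18 for GF microglia against 14, cluster 10 for GF astrocytes against 8 and 11, and cluster 16 for GF oligodendrocytes against 9. In Hip the excitatory neurons shifted as well: cluster 2 held 34.2% of those of GF mice against 3.26% in SPF and 1.90% in CGF, cluster 4 held 24.7% against 8.95% and 6.65%, and cluster 0 held 3.98% against 35.4% and 36.8%.

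The members were measured at very different depths. Fth1 gave 183775 UMIs in Hip and 113766 in PFC, the most of the 8. Between these and Trf stood Ireb2 (34046 and 18091), Ftl1 (18564 and 18652), Tfrc (17894 and 18989), Aco1 (10666 and 5751), Slc11a2 (9759 and 6544) and Slc40a1 (1987 and 1151). Trf gave 3 UMIs in each region. All levels below are CPM, the UMIs of the gene per 1000000 UMIs of a cell type in a library, and comparisons are made within a gene, since levels of different genes are not on a common scale.

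Transferrin receptor and ferroportin were on average highest in endothelial nuclei. Tfrc averaged 377 ± 103 CPM in endothelial nuclei of Hip (SD, n = 9 mice) and 405 ± 155 in PFC, and the next type, interneurons, stood at 45.4 ± 10.2 and 67.3 ± 8.44. Endothelial Tfrc was above that of interneurons in 9 of 9 mice in each region. Slc40a1 averaged 163 ± 58.0 in endothelial nuclei and 105 ± 19.8 in microglia of Hip, and 99.1 ± 21 and 67.7 ± 33.0 in PFC, against 7.40 ± 9.15 and 3.45 ± 5.73 in mural cells, the next type. In neurons Slc40a1 lay between 1.45 and 1.57 CPM on average.

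In Hip Fth1 was on average lowest in neurons, and Ftl1 was lowest in excitatory neurons of both regions. Fth1 in Hip was highest in endothelial nuclei (1489 ± 667, SD, n = 9), then in microglia (1118 ± 716) and oligodendrocytes (1084 ± 776), and lowest in excitatory neurons (297 ± 245) and interneurons (267 ± 211). The order in PFC was led by oligodendrocytes (973 ± 255) and endothelial nuclei (858 ± 656) and closed by excitatory neurons (325 ± 80.7) and interneurons (313 ± 52.2). This order of PFC pools the groups: outside GF mice Fth1 of excitatory neurons (384 ± 43.7 in SPF and 359 ± 61.5 in CGF, SD, n = 3) was close to that of microglia (380 ± 64.7 and 370 ± 55.4), astrocytes (391.7 ± 69.4 and 324 ± 34.4) and OPC (347 ± 130 and 278 ± 30.5), and OPC were above excitatory neurons in 5 of 9 mice. Ftl1 was highest in endothelial nuclei of both regions, at 369 ± 147 and 306 ± 200, and lowest in excitatory neurons, at 26.2 ± 20.8 and 50.0 ± 17. Much of the SD is the distance between the GF mice and the rest, described below.

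The regulators and Slc11a2 were spread more evenly. Ireb2 was highest in Hip microglia (122 ± 22.4) and lay between 63.5 and 89.3 in the other Hip types and between 50.4 and 73.5 across PFC. Aco1 was highest in astrocytes, 38.3 ± 7.42 in Hip and 39.8 ± 3.79 in PFC, and lowest in excitatory neurons, 18.4 ± 4.76 and 16.5 ± 3.70. Slc11a2 ran from 16.8 to 27.7 over the Hip types and from 12.2 to 22.4 over the PFC types. Of 136 pairs of neighbouring types in these orders, an exact paired permutation test (two-sided, Benjamini-Hochberg over the pairs) called none, with a smallest adjusted p of 0.059 and a smallest possible p of 0.00391 at 9 mice. At that floor a lone pair could not pass over 136 pairs however large its difference, so the lack of calls does not show like levels. The pairs were also ordered by the same means that were tested. With nuclei named 1 by 1 from marker genes in place of clusters, 11 pairs passed, endothelial Tfrc and Slc40a1 against their neighbours among them (exact permutation test, adjusted p = 0.0483). That naming also changed some leaders in Hip, where mural cells came first for Fth1 (1708 against 1627 in endothelial nuclei) and fibroblasts for Aco1 (43.2 against 38.3 in astrocytes).

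Trf, the transferrin gene, was close to absent. Its 6 UMIs fell in oligodendrocytes (3 in Hip and 2 in PFC) and excitatory neurons (1 in PFC). A count of 0 leaves room for about 3 UMIs, which is 0.0642 to 0.0914 CPM in a Hip library of excitatory neurons. For oligodendrocytes it is 1.32 to 3.04 CPM in Hip and 3.39 to 10.6 in PFC. The oligodendrocyte clusters themselves had 8 of 8 oligodendrocyte markers raised. A read-through model of the same strand, Gm20425, covers 99.5% of the Trf span and 63.5% of its exon bases in the annotation, and it gave 5 UMIs in Hip and 2 in PFC. This overlap was looked up after the values were seen, and its part in the Trf counts was not tested. Trf passed the filter on low counts in no type, and no group comparison is given for it.

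In Hip, GF mice had more ferritin transcript than SPF mice in every one of the 6 major cell types (excitatory neurons, interneurons, astrocytes, oligodendrocytes, oligodendrocyte precursor cells or OPC, and microglia). Fth1 was 2.74-fold (microglia) to 3.56-fold (oligodendrocytes) higher and Ftl1 2.33-fold (OPC) to 3.50-fold (oligodendrocytes) higher. The regulators moved the other way, with Ireb2 lower in 4 of 6 types and Aco1 in 3 of the 5 in which it was tested. In all, 14 of the 37 member tests were called higher (37.8%), where 20.2% of all 73767 gene tests in these types were, and 9 were called lower (24.3%), where 17.3% of all tests were (edgeR quasi-likelihood test, Benjamini-Hochberg adjusted p under 0.05). The median log2 fold change of the 37 was -0.152, beside medians of all genes between -0.0304 and 0.0385 in the 6 types. GF mice were compared with CGF mice in the same way, and since both comparisons share the GF mice their values are set side by side only.

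Fth1 in Hip excitatory neurons stood at 517, 695 and 621 CPM in GF mice 5, 6 and 7, at 114, 128 and 234 in SPF mice 30, 31 and 32, and at 68.5, 107 and 189 in CGF mice 17, 18 and 19. The GF mice lay above all 6 others without overlap, and SPF mouse 32 and CGF mouse 19 were the highest of their groups. The log2 fold change was 1.79 ± 0.36 (SE, adjusted p = 0.0026) against SPF and 2.13 ± 0.36 (adjusted p = 0.000977) against CGF. Fth1 in oligodendrocytes, which store iron for myelin synthesis, stood at 1818, 2273 and 2180 in GF, at 501, 539 and 820 in SPF and at 384, 484 and 756 in CGF mice. The groups again did not overlap, and the log2 fold changes were 1.83 ± 0.20 (adjusted p = 5.36e-06) and 2.01 ± 0.21 (adjusted p = 1.81e-06). Microglial Fth1 stood at 1815, 2222 and 2093 in GF, 698, 680 and 862 in SPF, and 359, 546 and 791 in CGF mice, for log2 fold changes of 1.45 ± 0.19 and 1.82 ± 0.20. Astrocytes, interneurons and OPC lay between these, at 1.67 to 1.82 against SPF and 1.93 to 2.10 against CGF, and in each the lowest GF mouse was above the highest of the other 6.

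Ftl1 in Hip excitatory neurons stood at 37.7, 63.1 and 55.7 CPM in GF, at 12.8, 12.5 and 21.3 in SPF, and at 7.79, 10.6 and 14.7 in CGF mice. No GF mouse overlapped with the others, and the log2 fold change was 1.58 ± 0.27 (adjusted p = 0.00113) against SPF and 2.04 ± 0.28 (adjusted p = 0.000283) against CGF. Microglial Ftl1 stood at 199, 263 and 201 in GF, 80.0, 70.9 and 108 in SPF, and 37.3, 55.2 and 87.6 in CGF mice. The light chain thus moved with the heavy chain in each of the 6 types, between 1.22 and 1.81 against SPF and between 1.83 and 2.23 against CGF. Low-depth nuclei of a neuronal cluster that stayed unnamed, 2.23% to 8.37% of the GF nuclei and 0.615% to 4.59% of the others, had 2364 to 2423 CPM of Fth1 in GF and 533 to 1077 in the other mice. Ferritin genes have processed pseudogenes in the mouse genome, and how reads that fit several copies were assigned is uncertain. The pseudogene Ftl1-ps1 was counted on its own, with 1118 UMIs in Hip, and in Hip excitatory neurons it was higher in GF than in SPF by 1.61 ± 0.38 (adjusted p = 0.00681).

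**Figure D1:**
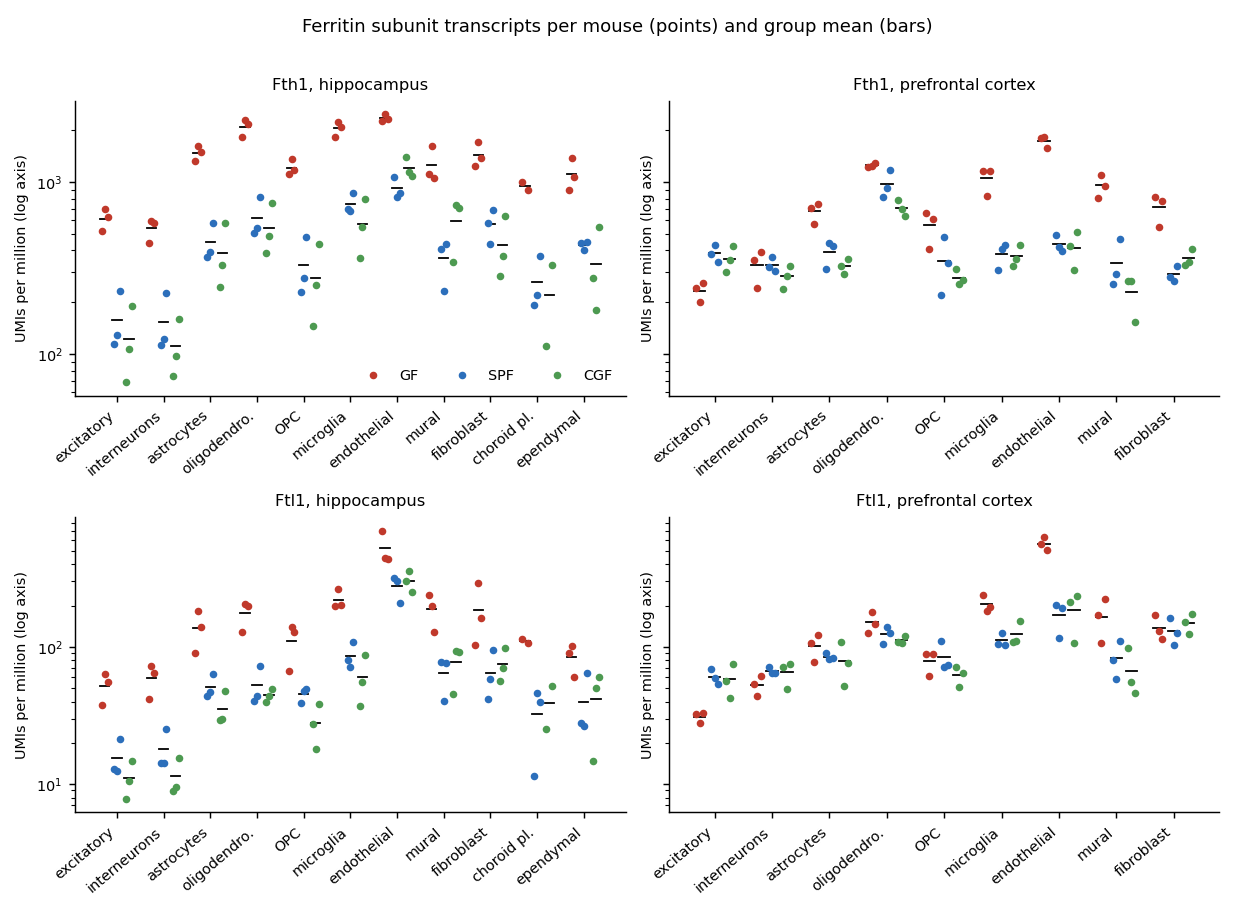
Fth1 and Ftl1 in CPM (log axis) by cell type in Hip and PFC, with 1 point per mouse (GF red, SPF blue, CGF green) and a black bar at each group mean (n = 3). In Hip the GF points lie above the others in the 6 major types, and in PFC excitatory neurons they lie below, at 200 to 257 against 302 to 428 for Fth1.

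The rise of ferritin went along with the ribosomal protein share of the libraries, another set of short and abundant transcripts. In Hip excitatory neurons that share was 0.173% of UMIs in GF and 0.0689% in SPF mice. Within SPF and within CGF, mice 32 and 19 had the highest share and the highest Fth1. Over 19 pairs of type and region, the log2 fold change of Fth1 went with that of the ribosomal protein share (Pearson r = 0.932, a description over points that share libraries), and for Ftl1 r was 0.973 over 18 pairs. With the ribosomal protein share of each library as a covariate, 0 of the 12 ferritin tests in Hip were called against SPF and their median log2 fold change went from 1.64 to 0.0995, while all gene tests called went from 37.5% to 7.4%. The mitochondrial share as a covariate left 5 of the 12, with a median of 0.628, and 17.1% of all gene tests. Both covariates were shares of the whole library, the same for every cell type. With a trend over gene length and GC content removed, Fth1 was called in 6 of 6 types (0.74 to 1.14) and Ftl1 in 4 of 6 (0.34 to 0.96). Length here was the genomic span of the gene, introns included, and GC content that of its longest transcript. The ribosomal protein share separates GF from the other mice in Hip, so its part and that of the microbiota cannot be told apart there.

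**Figure D2:**
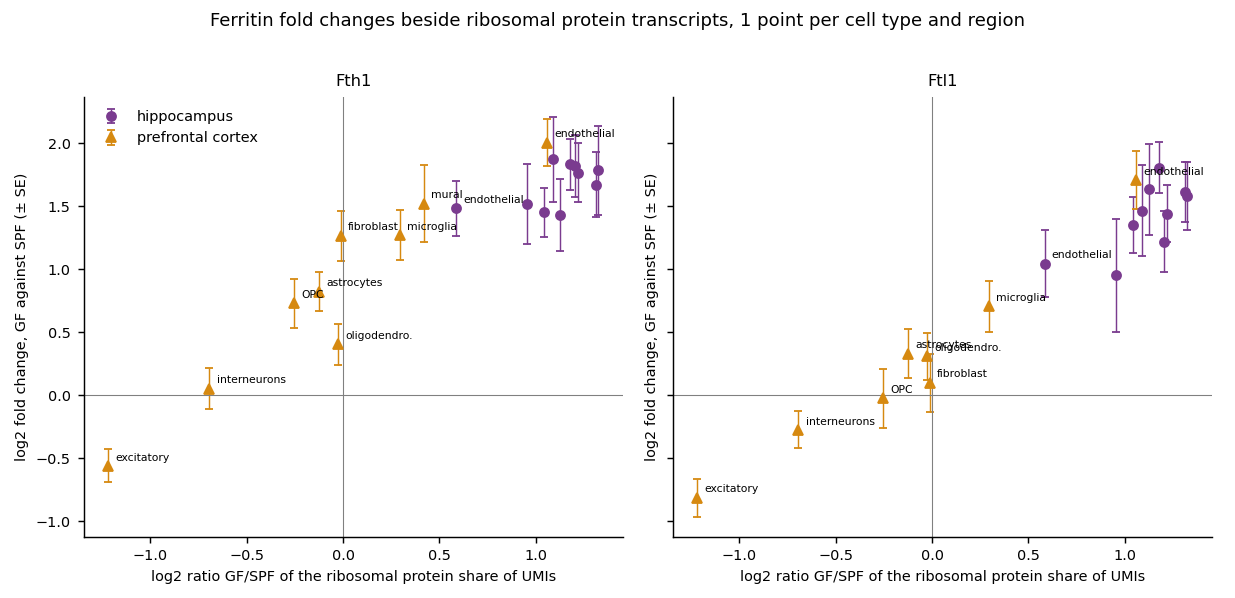
Log2 fold change of GF against SPF of Fth1 and Ftl1 (y axis, points with SE) against the log2 ratio of the ribosomal protein share (x axis) for each cell type, with Hip as circles and PFC as triangles. Points rise together from PFC excitatory neurons at the lower left to the Hip types at the upper right, while Fth1 of PFC astrocytes, oligodendrocytes and fibroblasts is positive at a ratio near 0.

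The regulators were lower in Hip of GF mice, Aco1 in both neuronal types and, against SPF, in astrocytes, and Ireb2 in these and oligodendrocytes. Aco1 in excitatory neurons stood at 12.7, 12.2 and 11.5 CPM in GF, at 21.9, 20.9 and 22.6 in SPF, and at 21.4, 21.8 and 20.7 in CGF mice. The GF values were close together and well below both other groups, and Aco1 was 2.01-fold lower than in SPF (log2 fold change -1.01 ± 0.07, adjusted p = 3.09e-05) and 2.02-fold lower than in CGF (-1.01 ± 0.07, adjusted p = 2.86e-05). With the ribosomal protein share as a covariate it was the 1 member test of 37 called in each comparison (-0.92, adjusted p = 0.014 against SPF, and -0.91, adjusted p = 0.0316 against CGF). All gene tests called in these fits were 7.4% and 3.97%. In interneurons Aco1 was lower by a log2 fold change of -0.77 ± 0.13 against SPF and -0.83 ± 0.13 against CGF. In astrocytes the value against SPF was -0.52 ± 0.17 (adjusted p = 0.0269), and it was not called without SPF mouse 31 (-0.41), GF mouse 6 (-0.44) or GF mouse 7 (-0.47), while against CGF it did not pass (-0.44 ± 0.17, adjusted p = 0.0563).

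Ireb2 in Hip astrocytes stood at 52.5, 49.6 and 41.4 CPM in GF, at 89.9, 93.0 and 70.9 in SPF, and at 89.8, 82.4 and 78.6 in CGF mice, with no overlap between GF and the rest. It was 1.74-fold lower than in SPF (log2 fold change -0.80 ± 0.16, adjusted p = 0.00109) and 1.78-fold lower than in CGF (-0.83 ± 0.16, adjusted p = 0.00068). In these astrocytes oligodendrocyte markers summed to between 244 and 332 CPM in GF mice, against 418 to 606 (SPF) and 397 to 507 (CGF), and excitatory markers to between 1418 and 1524, against 919 to 1391 and 687 to 1189. Astrocyte markers in Hip oligodendrocytes lay between 340.5 and 391.5 in GF mice, against 694 to 842 and 704 to 861, and the part of these markers in the values was not tested. In excitatory neurons the Ireb2 levels were 54.2, 53.6 and 54.9 in GF, 65.2, 69.3 and 66.1 in SPF, and 71.3, 77.8 and 72.8 in CGF mice. These differences were smaller than in astrocytes but larger than the spread, at -0.47 ± 0.06 and -0.65 ± 0.06. Interneurons (-0.31 against SPF and -0.47 against CGF) and oligodendrocytes (-0.53 and -0.48) were called in both comparisons, the oligodendrocyte call against CGF being lost without CGF mouse 18 (-0.46), GF mouse 6 (-0.47) or GF mouse 7 (-0.44). In microglia (-0.28 ± 0.21) and OPC (-0.15 ± 0.20) Ireb2 did not pass the test against SPF. With the ribosomal protein share as a covariate none of the 4 Ireb2 calls of either comparison remained, and against SPF astrocytes went to -0.24 and excitatory neurons to -0.37.

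**Figure D3:**
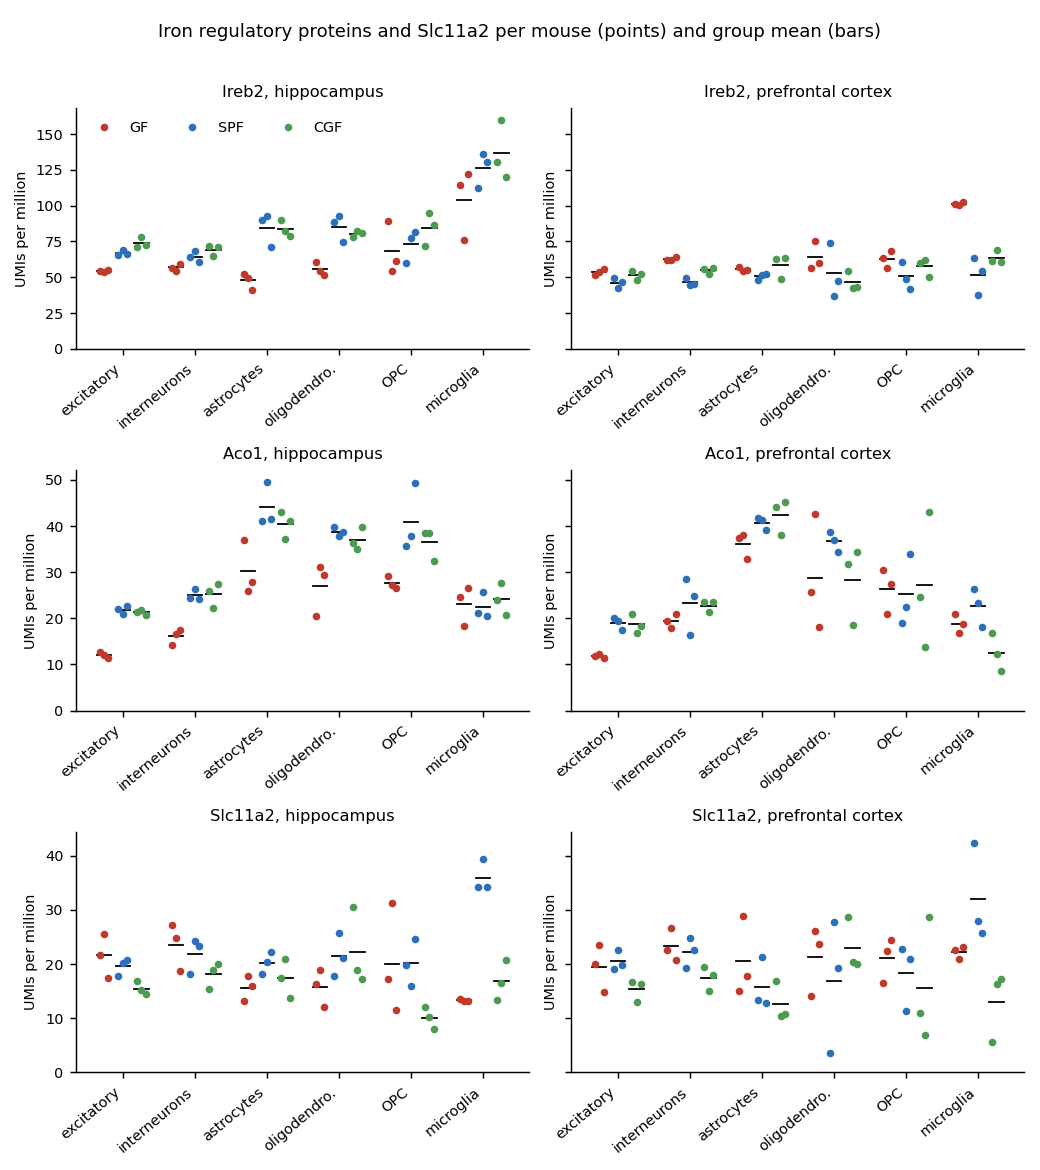
Ireb2 and Aco1 in CPM by cell type in Hip and PFC, with 1 point per mouse (GF red, SPF blue, CGF green) and a black bar at each group mean (n = 3). In Hip excitatory neurons the GF points of Aco1 lie between 11.5 and 12.7 and the others between 20.7 and 22.6.

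Uptake and export genes were called in few types of Hip. Tfrc in interneurons stood at 51.6, 67.4 and 52.6 CPM in GF, 38.7, 45.4 and 37.1 in SPF, and 39.4, 36.1 and 39.9 in CGF mice. The GF mice were the 3 highest, by a log2 fold change of 0.37 ± 0.12 (adjusted p = 0.0192) against SPF and 0.38 ± 0.12 (adjusted p = 0.0146) against CGF. Excitatory neurons had 0.27 ± 0.09 in both comparisons. These neuronal calls rested on single mice: in interneurons the call against SPF was lost without SPF mouse 30 (0.33), SPF mouse 32 (0.30) or GF mouse 6 (0.25), and that against CGF without CGF mouse 18 (0.34) or GF mouse 6 (0.27). In excitatory neurons it was lost against SPF without SPF mouse 32 (0.18), GF mouse 5 (0.27) or GF mouse 6 (0.21), and against CGF without CGF mouse 17 (0.22), CGF mouse 19 (0.25), GF mouse 5 (0.26) or GF mouse 6 (0.21). By DESeq2 neither neuronal call against SPF remained (adjusted p = 0.0549 in interneurons and 0.0589 in excitatory neurons), nor did either with the length and GC trend removed. In the other 4 types Tfrc passed in neither comparison.

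Slc40a1 was scarce in Hip excitatory neurons, at 1.18, 0.944 and 1.23 CPM in GF, 1.32, 1.90 and 1.63 in SPF, and 1.62, 1.58 and 1.59 in CGF mice. The GF mice were below the others, with a log2 fold change of -0.69 ± 0.19 (adjusted p = 0.0152) against SPF, lost without SPF mouse 31 (-0.55) or GF mouse 6 (-0.57), and -0.71 ± 0.19 (adjusted p = 0.0128) against CGF. Microglial Slc40a1 stood at 90.1, 81.4 and 87.4 in GF, 108, 108 and 87.4 in SPF, and 125, 127 and 134 in CGF mice, so GF and SPF met at their edges. It did not pass against SPF (-0.23 ± 0.20, adjusted p = 0.437), and against CGF it was -0.60 ± 0.21 (adjusted p = 0.0291), a call lost without any 1 of the 6 mice compared (-0.63 to -0.54). Border macrophage markers in these microglia summed to 152.8 to 470.2 CPM (GF), 239.9 to 385.4 (SPF) and 347.5 to 833.5 (CGF). Their part in the Slc40a1 value was not tested. Slc11a2 in microglia rested on 96 UMIs in all, at 13.6, 13.1 and 13.2 in GF, 34.3, 39.4 and 34.3 in SPF, and 13.3, 16.5 and 20.7 in CGF mice. By these values the SPF mice stood apart, but CGF against SPF was not called by edgeR's quasi-likelihood test (-1.04 ± 0.35, adjusted p = 0.454). The log2 fold change of GF against SPF was -1.41 ± 0.38 (adjusted p = 0.00624, and 0.058 by DESeq2), and against CGF -0.37 ± 0.46 (adjusted p = 0.602). In the other 5 types Slc11a2 did not pass.

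In PFC Fth1 of GF mice was higher in glia, Ftl1 was called higher against SPF in microglia alone of the major types, and both were lower in excitatory neurons. Fth1 was higher in microglia (2.41-fold), astrocytes (1.77-fold), OPC (1.66-fold) and oligodendrocytes (1.32-fold) and 1.48-fold lower in excitatory neurons than in SPF mice. Of 35 member tests 9 were called higher (25.7%), beside 26.9% of all 65339 gene tests in PFC, and 4 lower (11.4%), beside 26.7%. The median of the 35 was 0.122, and the medians of all genes lay between 0.0073 and 0.0263. Of the 13 calls 4 remained with the length and GC trend removed, Fth1 in microglia (0.51) and excitatory neurons (-0.43), Aco1 in excitatory neurons (-0.42) and Tfrc in microglia (-1.29), and with the ribosomal protein share as a covariate 3 remained, Fth1 in microglia and astrocytes and Tfrc in microglia (-2.24). All gene tests called went from 53.6% to 22.2% with that covariate. The value of Tfrc in microglia turned positive with the mitochondrial share as a covariate.

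Microglial Fth1 of PFC stood at 1161, 825 and 1163 CPM in GF, 306, 405 and 428 in SPF, and 324, 354 and 432 in CGF mice. GF mice were above all 6 others, by a log2 fold change of 1.27 ± 0.20 (adjusted p = 5.78e-06) and 1.32 ± 0.20 (adjusted p = 3.18e-06). The ribosomal protein share of these nuclei was 0.407% in GF and 0.331% in SPF, and their mitochondrial share, 0.661% in GF, was below that of SPF mice (log2 ratio -2.27). Fth1 in astrocytes stood at 709, 570 and 744 in GF, 312, 440 and 423 in SPF, and 325, 290 and 359 in CGF mice. There too the groups did not overlap, at 0.82 ± 0.16 (adjusted p = 0.000103) and 1.08 ± 0.16 (adjusted p = 3.43e-06), and the share was 0.256% in GF and 0.279% in SPF. With the ribosomal protein share of the whole library as a covariate, Fth1 against SPF was 1.57 in microglia and 0.97 in astrocytes, and both were called. OPC (0.92, adjusted p = 0.153) and oligodendrocytes (-0.07, adjusted p = 0.919) were not. The library share was lower in GF in PFC (0.110% to 0.140%, against 0.218% to 0.274% in SPF), while the microglia's own share was higher in GF. These calls therefore carry no reading of the nuclei's own share. With the length and GC trend removed the astrocyte value was 0.23 (adjusted p = 0.173), that of OPC 0.35 and that of oligodendrocytes -0.23, none of them called. Markers of other cells moved with astrocyte Fth1: those of oligodendrocytes summed to between 184 and 218 CPM in astrocytes of GF mice, against 77.7 to 127 (SPF) and 93.5 to 111 (CGF), and those of microglia to between 118 and 158, against 55.3 to 78.4 and 50.8 to 84.0. In microglia the oligodendrocyte markers summed to between 322 and 451, against 159 to 205 (SPF) and 126 to 255 (CGF). The part of these markers was not tested. OPC stood at 657, 407 and 612 in GF and 221, 481 and 340 in SPF, which overlap, and their call against SPF (0.73 ± 0.20) was lost without SPF mouse 30 (0.48, adjusted p = 0.0544). The 8 oligodendrocyte markers, all with UMIs in these nuclei, summed to between 624 and 1062 CPM in OPC of GF mice, against 214 to 301 (SPF) and 106 to 168 (CGF), and their part in the OPC value was not tested. Oligodendrocytes had 0.40 ± 0.16 (adjusted p = 0.0392) against SPF, lost without SPF mouse 30 (0.26), SPF mouse 31 (0.33), GF mouse 6 (0.42) or GF mouse 7 (0.38), and 0.86 ± 0.17 (adjusted p = 7.41e-05) against CGF.

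Fth1 in PFC excitatory neurons stood at 243, 200 and 257 CPM in GF, 383, 428 and 340 in SPF, and 302, 351 and 424 in CGF mice. The GF mice were the 3 lowest, the reverse of Hip, with log2 fold changes of -0.56 ± 0.13 (adjusted p = 0.0026) and -0.44 ± 0.13 (adjusted p = 0.0111), the latter lost without GF mouse 6 (-0.35). Ftl1 in the same neurons stood at 32.2, 27.8 and 33.0 in GF, 69.4, 59.6 and 53.4 in SPF, and 56.9, 42.6 and 75.3 in CGF mice, again with GF below all others (-0.81 ± 0.15, adjusted p = 0.000518, and -0.72 ± 0.15, adjusted p = 0.00124). The ribosomal protein share of these neurons was 0.101% in GF and 0.236% in SPF mice. With the share of the whole library as a covariate Ftl1 was 0.02 against SPF and 0.29 against CGF, and Fth1 was -0.24 (adjusted p = 0.486) and -0.06 (adjusted p = 0.906). Ftl1 was -0.17 and -0.08, and no longer called, with the length and GC trend removed. Interneuron Fth1 overlapped between the groups (242 to 391 in GF and 302 to 366 in SPF; log2 fold change 0.05 ± 0.16). Ftl1 was higher in GF microglia of PFC, 0.70 ± 0.21 against SPF (adjusted p = 0.00584) and 0.54 ± 0.20 against CGF, the latter lost without CGF mouse 17 (0.45), CGF mouse 18 (0.53) or GF mouse 5 (0.49). The pseudogene Ftl1-ps1 moved against Ftl1 in PFC excitatory neurons, where it was higher in GF by 1.04 ± 0.29 against SPF (adjusted p = 0.0074) and 0.68 ± 0.28 against CGF (adjusted p = 0.0482), and in interneurons it was higher by 2.14 ± 0.73 against SPF (adjusted p = 0.0225).

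Ireb2 also ran the other way in PFC. In interneurons it stood at 62.1, 62.0 and 63.9 CPM in GF, 49.6, 44.4 and 45.3 in SPF, and 55.8, 52.1 and 56.6 in CGF mice. GF mice were above the rest, with CGF between, at log2 fold changes of 0.49 ± 0.10 (adjusted p = 0.00092) against SPF and 0.27 ± 0.10 (adjusted p = 0.034) against CGF, the latter lost without any 1 of the GF or CGF mice or without SPF mouse 32 (0.24 to 0.28). Excitatory neurons had 0.38 ± 0.09 (adjusted p = 0.00245) and 0.24 ± 0.09 (adjusted p = 0.0327), the latter lost without CGF mouse 18, CGF mouse 19, GF mouse 6 or GF mouse 7 (0.21 to 0.23). Microglial Ireb2 was 101, 101 and 102 in GF, 63.4, 37.3 and 54.2 in SPF and 61.5, 69.3 and 60.5 in CGF mice. It passed against SPF (0.78 ± 0.26, adjusted p = 0.0126), a call lost without SPF mouse 31 (0.64, adjusted p = 0.0604), and not against CGF (0.48 ± 0.24, adjusted p = 0.0993). With the length and GC trend removed none of the Ireb2 calls in PFC remained, at 0.14 in interneurons, 0.09 in excitatory neurons and 0.50 in microglia against SPF, and the neuronal values against CGF turned negative (-0.06 in both). None remained with the ribosomal protein share as a covariate either (0.53, 0.35 and 0.66 against SPF). Aco1 kept the direction it had in Hip: in excitatory neurons it stood at 11.9, 12.3 and 11.4 in GF, 20, 19.5 and 17.5 in SPF, and 20.9, 16.9 and 18.4 in CGF mice, which is -0.52 ± 0.10 (adjusted p = 0.000853) and -0.47 ± 0.10 (adjusted p = 0.0017).

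Ferroportin was higher in PFC microglia of GF mice. Slc40a1 stood at 115, 103 and 107 CPM in GF, 63.4, 60.5 and 23.2 in SPF, and 58.7, 44.8 and 34.5 in CGF mice, with no overlap. The log2 fold change was 1.11 ± 0.30 (adjusted p = 0.00281) against SPF and 0.99 ± 0.28 (adjusted p = 0.00471) against CGF, and the former was lost without SPF mouse 32 (0.68, adjusted p = 0.0795). Against SPF it was also lost with the ribosomal protein share as a covariate (1.36, adjusted p = 0.177) and with the length and GC trend removed (0.61, adjusted p = 0.0927). Markers of border macrophages, 8 of 8 of which had UMIs in these microglial sums so that none was at 0, summed to 310 to 513 CPM in GF mice, to 127 to 243 in SPF mice and to 86.7 to 318 in CGF mice, and their part in the Slc40a1 value was not tested. Microglial Tfrc was lower in GF than in SPF by -0.90 ± 0.36 (adjusted p = 0.0383), from 126 UMIs in all, and this was lost without any 1 of the 6 mice (-0.96 to -0.78), while against CGF it did not pass (-0.69 ± 0.37, adjusted p = 0.118). With the mitochondrial share as a covariate the value against SPF turned positive. Slc11a2 did not pass against SPF in any type, and against CGF it was higher in excitatory neurons (0.53 ± 0.16, lost without GF mouse 6 at 0.36) and interneurons (0.48 ± 0.17, lost without GF mouse 6 at 0.38 or CGF mouse 18 at 0.42).

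In the vascular and border types Fth1 was higher in GF than in SPF mice in each type tested, and in PFC endothelial nuclei Ftl1 was higher and Tfrc lower as well. Endothelial Fth1 in PFC stood at 1787, 1820 and 1565 CPM in GF, 493, 417 and 399 in SPF, and 424, 307 and 509 in CGF mice. GF mice were about 4-fold above both other groups, with folds of 4.02 and 4.07 (log2 2.00 ± 0.19, adjusted p = 4.11e-08, and 2.03 ± 0.19, adjusted p = 3.44e-08), and Ftl1 was 3.27-fold and 2.92-fold higher. Haemoglobin genes took 0.349% to 0.452% of the UMIs of these nuclei in GF mice, against 0.0322% to 0.121% (SPF) and 0.296% to 0.782% (CGF), and their part in the endothelial values was not tested. In Hip endothelial Fth1 stood at 2257, 2478 and 2310 in GF, 1068, 821 and 867 in SPF, and 1391, 1135 and 1075 in CGF mice, a log2 fold change of 1.48 ± 0.22 (adjusted p = 0.00351) against SPF and 1.09 ± 0.22 (adjusted p = 0.0105) against CGF, the latter lost without CGF mouse 18 (1.04). Fth1 was also higher in GF in mural cells (1.87 in Hip and 1.52 in PFC), fibroblasts (1.43 and 1.27) and Hip ependymal cells (1.52). Neither with the ribosomal protein share as a covariate nor with the length and GC trend removed was Fth1 called against SPF in the 4 Hip types, while in PFC endothelial nuclei it was called in both cases (adjusted p = 0.00021 and 7.92e-05). The covariate was the share of the whole library, lower in GF in PFC. In the PFC endothelial nuclei themselves the share was 0.69% in GF and 0.331% in SPF, and its part was not tested. Some of the Hip calls are thin: without 1 mouse the mural value (1.60 to 1.98) was lost in 4 cases (SPF mice 30 and 31 and GF mice 6 and 7), the ependymal value in 5 (SPF mice 30, 31 and 32, GF mouse 6 and CGF mouse 17, 1.29 to 1.55), and the fibroblast value without SPF mouse 31 (1.25). Endothelial Ftl1 in Hip (1.04 ± 0.26, adjusted p = 0.0288) was lost without any 1 of the 6 mice (0.80 to 1.17), and fibroblast Ftl1 (1.63 ± 0.36) without SPF mouse 30 (1.45), SPF mouse 31 (1.48) or GF mouse 6 (1.11).

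Endothelial Tfrc, the receptor through which the barrier takes up transferrin, fell in PFC of GF mice. It stood at 198, 242 and 274 CPM in GF, 515, 533 and 277 in SPF, and 605, 529 and 471 in CGF mice, so that SPF mouse 32 lay just above the GF range. The log2 fold change was -0.82 ± 0.22 (adjusted p = 0.00495) against SPF and -1.17 ± 0.21 (adjusted p = 0.000183) against CGF. With nuclei named 1 by 1 from markers the value against SPF did not pass (-0.44, adjusted p = 0.195) and that against CGF did (-1.14), and neither passed with the ribosomal protein share as a covariate (-0.76 and -1.10). The 8 mural markers, all with UMIs in these endothelial nuclei, summed to between 2222 and 2845 CPM in GF mice, against 785 to 1442 (SPF) and 791 to 2308 (CGF), and their part in the endothelial values of PFC was not tested. In Hip they summed to 1264 to 1395 in GF and 2027 to 4672 in the others. Endothelial Tfrc of Hip stood at 251, 281 and 276 in GF, 341, 534 and 414 in SPF, and 518, 423 and 352 in CGF mice. The GF mice were the 3 lowest there as well, but the difference did not pass (-0.53 ± 0.24, adjusted p = 0.201, and -0.54 ± 0.24, adjusted p = 0.199). Endothelial Slc40a1 in Hip was 80.3, 116 and 97.4 in GF, 210, 242 and 159 in SPF, and 210, 212 and 140 in CGF mice, and did not pass either (-0.85 ± 0.27, adjusted p = 0.0694). Over the 4 vascular and border types of Hip 6 of 17 member tests were called in either direction, beside 3.87% of all gene tests, and over the 3 of PFC 5 of 10 were called, beside 28.1%. All of these calls were ferritin genes that rose except endothelial Tfrc. The smallest library held 13 mural and 28 endothelial nuclei in Hip.

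Against CGF mice the counts in the 6 major types were close to those against SPF mice. In Hip 14 of 37 tests were called higher and 8 lower, beside 20.6% and 17.7% of all gene tests, and in PFC 11 of 35 were called higher and 4 lower, beside 26.9% and 26.7%. Calls made against CGF alone in PFC included Ftl1 in oligodendrocytes (0.46 ± 0.19) and Tfrc in oligodendrocytes (-0.84 ± 0.33), neither of which passed against SPF (0.31 ± 0.19 and -0.35 ± 0.35), and the difference between the comparisons was not tested. The Ftl1 value was lost without any 1 of 8 mice (0.34 to 0.48) and the Tfrc value without CGF mouse 17 (-0.68), CGF mouse 19 (-0.80) or GF mouse 6 (-0.55). Ftl1 turned negative where nuclei were named 1 by 1 from markers, and Tfrc turned positive with the ribosomal protein share as a covariate.

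No member was called between CGF and SPF mice in the 6 major types of either region. By edgeR's quasi-likelihood test 0 of 37 tests passed in Hip, beside 0.207% of all gene tests called higher and 0.144% lower, and 0 of 35 in PFC, beside 0.110% and 0.113%. At an unadjusted p under 0.05 the numbers were 6 and 4, and DESeq2 called 0 in both, with 5 and 3 at an unadjusted p under 0.05. The share of all genes at the unadjusted threshold is not given here, so these numbers are not read as a result about the members. The values still had a range: Fth1 was -0.43 to -0.17 in Hip and -0.46 to -0.05 in PFC, and Ftl1 was -0.65 to -0.24 and -0.44 to 0.16. The tests of 3 mice against 3 do not show that the groups are alike.

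Between Hip and PFC of SPF mice 9 of 39 member tests were called higher in Hip and 11 lower, and in CGF mice 10 and 10. All gene tests were called higher and lower in 26.1% and 25.3% of cases in SPF and in 26.2% and 26.6% in CGF, so the members' shares were near the background. The regions also differed in library quality within these groups: in SPF mice the ribosomal protein share was 0.0729% to 0.118% in Hip and 0.218% to 0.274% in PFC, the rRNA-linked share 0.0616% to 0.179% and 1.22% to 1.82%, and the median UMIs per nucleus 6132 to 7054 and 3028 to 3187, and in CGF mice the ribosomal protein share was 0.0616% to 0.102% and 0.219% to 0.345%. Their part in the region values was not tested. In SPF mice Ireb2 was higher in Hip in 6 of 6 types (0.62 to 1.07) and Ftl1 lower in 5 of 6, with excitatory neurons at -1.74 ± 0.24 (adjusted p = 4.18e-06). With the length and GC trend removed the calls higher in Hip went from 9 to 3 in SPF and from 10 to 4 in CGF mice, and those of Ireb2 remained in excitatory neurons (0.26) and microglia (0.73) of SPF and in excitatory neurons (0.22) of CGF mice. Several calls in SPF mice rested on single mice: Ireb2 in OPC (0.62 ± 0.25, adjusted p = 0.0486) was lost with the mouse as a replicate block (0.62, adjusted p = 0.0533) and without SPF mouse 31 (0.54), SPF mouse 32 (0.43), CGF mouse 18 (0.61), CGF mouse 19 (0.62) or GF mouse 7 (0.63), and Ftl1 in OPC without SPF mouse 30 (-0.53). Ireb2 in oligodendrocytes was lost without SPF mouse 31 (0.45), and Ftl1 in astrocytes without SPF mouse 30 (-0.63) or 31 (-0.72). Tfrc in astrocytes, lower in Hip (-0.58 ± 0.24, adjusted p = 0.0494), was lost without SPF mouse 31 (-0.47), SPF mouse 32 (-0.40), CGF mouse 19 or any 1 of the GF mice (-0.57 in these cases), and was -0.17 (adjusted p = 0.658) where each nucleus was typed by its own marker UMIs and not by its cluster. Fth1 was lower in Hip in excitatory neurons (-1.05 ± 0.28), interneurons (-0.88 ± 0.25, lost without SPF mouse 31 at -0.67) and oligodendrocytes (-0.69 ± 0.19), and higher in microglia (0.76 ± 0.21, lost without SPF mouse 30 at 0.66). In CGF mice Ireb2 was higher in 6 of 6 types (0.53 to 0.91) and Ftl1 lower in 6 of 6 (-2.28 to -1.02), of which the OPC values were lost without CGF mouse 18 (0.65 and -0.90), CGF mouse 19 (0.55 for Ireb2) or CGF mouse 17 (-0.93 for Ftl1). Fth1 in CGF mice was lower in Hip in excitatory neurons (-1.29 ± 0.28) and interneurons (-1.09 ± 0.25), and with the replicate block in oligodendrocytes as well (-0.42, adjusted p = 0.0133). Aco1 was higher in Hip in excitatory neurons of SPF (0.43 ± 0.08) and CGF mice (0.47 ± 0.08) and in interneurons of CGF mice (0.41 ± 0.15), the last lost without CGF mouse 17 (0.38) or 19 (0.37).

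In GF mice 7 member tests passed between the regions, 6 of them ferritin genes that were higher in Hip. Fth1 was higher in Hip in 5 of 6 types, with excitatory neurons at 1.25 ± 0.28 (adjusted p = 0.002), astrocytes at 1.15 ± 0.21, OPC at 1.08 ± 0.24, microglia at 0.99 ± 0.20 and oligodendrocytes at 0.76 ± 0.18. The OPC and oligodendrocyte calls were lost without GF mouse 6 (0.83 and 0.69) or GF mouse 7 (1.19 and 0.78), and the microglial call without GF mouse 6 (0.77). With the mouse as a replicate block interneurons passed too (0.75, adjusted p = 0.0201). Ftl1 was higher in excitatory neurons (0.61 ± 0.23, adjusted p = 0.0468), a call lost without SPF mouse 30 or 31 (0.61 in both cases), GF mouse 6 (0.40) or GF mouse 7 (0.60). Tfrc was lower in the same neurons (-0.52 ± 0.09, adjusted p = 0.000193), as it was in SPF (-0.67 ± 0.09) and CGF (-0.80 ± 0.09). In all 6 of 39 tests were called higher in Hip and 1 lower, beside 5.59% and 5.80% of all gene tests. Leaving out GF mouse 6 brought these 7 calls to 3, and GF mouse 7 to 4. In GF mice the ribosomal protein share was 0.181% to 0.238% in Hip and 0.110% to 0.140% in PFC. The mitochondrial share was 0.645% to 1.10% and 0.359% to 0.594%, and the part of these shares in the region values was not tested.

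Whether the difference between GF and SPF mice itself differed between the regions was tested as the difference of both GF against SPF contrasts. It was larger in Hip by 2.30 ± 0.39 for Fth1 (adjusted p = 9.69e-05) and 2.35 ± 0.33 for Ftl1 (adjusted p = 1.16e-05) in excitatory neurons, and Fth1 and Ftl1 passed in each of the other major types but microglia, where Fth1 was 0.24 ± 0.29 (adjusted p = 0.621) and Ftl1 0.70 ± 0.31 (adjusted p = 0.119). Ireb2 differed the opposite way in 5 of 6 types, and its estimate in excitatory neurons was -0.90 ± 0.10 (adjusted p = 9.27e-07). Ireb2 remained called in excitatory neurons alone with the length and GC trend removed (-0.28, adjusted p = 0.0231), and the negative calls of all members went from 8 to 2 while the positive ones numbered 10 in both fits. Some of the glial calls rested on single mice: in astrocytes and OPC those of Fth1 were lost without SPF mouse 31 (0.86 and 0.75) or GF mouse 6 (0.82 and 0.85), and those of Ftl1 without SPF mouse 30 (1.03 and 0.97) or GF mouse 6 (0.77 and 0.95). Those of Ireb2 in oligodendrocytes and microglia were lost without SPF mouse 31 (-0.59 and -0.79) or GF mouse 6 (-0.76 and -0.85), and further without GF mouse 7 in oligodendrocytes (-0.88) and SPF mouse 32 in microglia (-1.10). Aco1 was lower in GF in both regions, by more in Hip (-0.54 ± 0.12 in excitatory neurons, adjusted p = 0.000925). Of 39 member tests 10 were called positive and 8 negative, beside 15.9% and 18.4% of all gene tests, and without GF mouse 6 the 18 calls became 11. In endothelial nuclei the difference did not pass for Fth1 (-0.54 ± 0.28, adjusted p = 0.291) or Tfrc (0.28 ± 0.33, adjusted p = 0.692). The log2 ratio of GF to SPF in excitatory neurons was 1.325 in Hip and -1.219 in PFC for the ribosomal protein share. For the mitochondrial share it was 1.61 and -2.444. The part of these shares in the region differences was not tested.

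A wider list of 41 other genes of iron handling was read in the same tables. In Hip 35 were tested, and 49 of their 157 tests were called higher in GF than in SPF (31.2%) and 7 lower (4.46%), beside 20.2% and 17.3% of all gene tests. Glrx5 (1.21 to 1.60) and Iscu (0.86 to 1.25), both of iron-sulfur cluster assembly, and the copper ferroxidase Heph (0.79 to 0.98) were higher in 6 of 6 types. Among those lower were Ncoa4, the receptor that delivers ferritin to lysosomes, in 2 of 6 types, Slc39a8 in excitatory neurons (-0.76 ± 0.20) and Bmp6 in oligodendrocytes (-1.99 ± 0.59). In PFC 32 were tested, with 52 of 132 tests higher (39.4%) and 19 lower (14.4%), beside 26.9% and 26.7%. Hmox2, a haem oxygenase, was higher in 6 of 6 types (0.75 to 1.54), and Slc25a28, a mitochondrial iron importer, was lower in 6 of 6 (-1.62 to -1.16). Heph, higher in each type of Hip, was lower in 3 types of PFC, with excitatory neurons at -1.99 ± 0.13. Between CGF and SPF mice no test of this list was called in Hip (0 of 157) or in PFC (0 of 132) by edgeR.

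The genes whose levels ran most like those of the members over the 20 pairs of type and region, among 12370 genes, were ranked by Pearson correlation. For Fth1 they were Pea15a (r = 0.965) and Rnf7 (0.958), for Ftl1 Tpt1 (0.971) and Psenen (0.963), and for Tfrc the endothelial gene Arhgef15 (0.964) and Mannr (0.948). Slc40a1 ran with Mfng (0.959) and Tal1 (0.957), and Ireb2 with Trim44 (0.958) and Rnf2 (0.948). Aco1 ran with Fgfr2 (0.887) and Ptch1 (0.885), and Slc11a2 with 1700037C18Rik (0.821) and Ift52 (0.819). These values are descriptions, since the points share libraries and the ranking picks the highest.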

How the data were processed

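The authors made the deposited counts, whole numbers of UMIs (unique molecular identifiers, 1 per captured transcript) for each gene in each nucleus, with Cell Ranger (3.1.0 in the file headers) on mm10, and no further filter was applied to them. Groups and mice were taken from the labels. Nuclei were kept at 200 genes or more and at most 10% mitochondrial UMIs. Counts scaled to 10000 per nucleus were clustered by region (2000 variable genes, 10 components, 20 neighbours, Leiden resolution 1, without integration), and clusters were named from 8 markers per type. A neuronal cluster of low depth in each region (0.263 and 0.159 of the median UMIs of the libraries) stayed unnamed, a rule chosen after seeing the data. Nuclei most like simulated doublets (50 neighbours, 30 components, 0.8% per 1000 nuclei) were removed only in an alternative. Counts were summed per library and type (at least 10 nuclei) and tested with edgeR 4.0.16 (quasi-likelihood, TMM, Benjamini-Hochberg within each type and comparison, 0.05) over the genes its low-count filter kept, with all 9 libraries of a region, or the 18 of both, in a fit. Reads that overlap several genes or copies are uncertain. The members, gene lists, named genes and tests were chosen with earlier results of these data known. Named genes of the wider list were the 3 of each direction and region with the most types called, then the largest change, of which 1 is not reported here. Mouse numbers pair the regions, since both came from the same animal, and deviations from the group means correlated at 0.1546 to 0.3215 within mice in excitatory neurons and at -0.0424 to 0.2031 in the other types.

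R 4.3.3, DESeq2 1.42.0, Python 3.11.15, numpy 2.4.6, scipy 1.17.1 and leidenalg 0.10.2 were used. Tests were checked on simulated data.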

Additional observations from a re-analysis of the deposited data

Results flagged for a closer look

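The difference between the GF against SPF contrasts of Hip and PFC passed edgeR's quasi-likelihood test in 19 cases, each a log2 difference, Hip minus PFC, and no explanation was weighed for them. Fth1 was 2.30 in excitatory neurons, 1.61 in interneurons, 1.46 in oligodendrocytes, 1.10 in OPC and 1.01 in astrocytes. Ftl1 was 2.35 in excitatory neurons, 1.88 in interneurons, 1.52 in oligodendrocytes, 1.26 in OPC, 1.17 in astrocytes and 1.56 in fibroblasts, the last lost without GF mouse 6 (0.98), GF mouse 7 (1.53) or SPF mouse 30 (1.22), 31 (1.57) or 32 (1.88). Ireb2 was -0.90 in excitatory neurons, -0.81 in interneurons, -0.91 in astrocytes, -0.88 in oligodendrocytes and -1.01 in microglia. Aco1 was -0.54 in excitatory neurons and -0.57 in interneurons, the latter lost without GF mouse 5 (-0.49), 6 (-0.63) or 7 (-0.57), SPF mouse 31 (-0.32) or CGF mouse 17 (-0.57). Slc40a1 in microglia was -1.28, lost without SPF mouse 32 (-0.95). Library depth and the ribosomal protein and mitochondrial shares also separated GF from SPF in opposite directions in Hip and PFC, and their part in these differences was not tested.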

How the results depend on the processing

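Of the values of single members under alternatives other than leaving out a mouse, 3969 stayed on their side of the threshold, 302 lost a call, 30 gained one and 19 were called values that changed sign. Sign was followed for called values only, since values that were not called also crossed 0. With the ribosomal protein share of the library as a covariate, chosen after seeing the data, the members called went from 23 to 1 and from 22 to 1 in Hip (GF against SPF, GF against CGF) and from 13 to 3 and from 15 to 2 in PFC. All gene tests called fell as well, from 37.5% to 7.4% and from 38.3% to 3.97% in Hip. In PFC they went from 53.6% to 22.2% and from 53.6% to 15.4%. The mitochondrial share, also chosen after seeing the data, left 8 and 3 members in Hip and 3 and 5 in PFC. Of all gene tests it left 17.1% and 6.53% in Hip and 11.4% and 17.8% in PFC. The marker gate per nucleus left 7 in PFC (GF against SPF) and 13 between regions in CGF. It brought the order of types from 0 to 11, at the same smallest p of 0.00391 in both (exact permutation test). With the length and GC trend removed 4 remained called in PFC (GF against SPF) and 13 between regions in SPF. Without a filter on low counts CGF against SPF in Hip went from 0 to 2, Fth1 and Ftl1 in interneurons. The cause was not tested for any of these.

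Sign changes of called values under the ribosomal protein covariate were Fth1 in Hip excitatory neurons (-0.10 against SPF, -0.042 against CGF), Hip interneurons (-0.018, SPF), Hip OPC (-0.048, CGF) and PFC oligodendrocytes (-0.068, SPF), Ftl1 in Hip interneurons (-0.047, SPF), Hip fibroblasts (-0.088, SPF, and -0.62, CGF) and PFC excitatory neurons (0.022, SPF, and 0.29, CGF), and Tfrc in PFC oligodendrocytes (0.49, CGF). Under the mitochondrial covariate they were Ftl1 in Hip fibroblasts (-0.082, CGF) and Tfrc in PFC microglia (0.47, SPF). With the length and GC trend removed they were, in PFC, Ireb2 in excitatory neurons (-0.057, CGF) and interneurons (-0.064, CGF) and Fth1 in oligodendrocytes (-0.23, SPF). With the marker gate they were Fth1 (-0.22, SPF) and Ftl1 (-0.16, CGF) in PFC oligodendrocytes and the region difference of Ftl1 in fibroblasts (-0.061).

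Leaving out each mouse in turn gave 19 to 24 (GF against SPF) and 18 to 23 (GF against CGF) members called in Hip, 10 to 13 and 10 to 14 in PFC, 0 for CGF against SPF in each region, and, between regions, 3 to 8 (GF), 15 to 20 (SPF) and 17 to 21 (CGF), and 11 to 19 for the region difference.

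With the mouse as a replicate block the calls between regions were 8 (GF), 19 (SPF) and 22 (CGF), and 18 for the region difference. Apart from the changes given with those comparisons, the block added Slc11a2 in excitatory neurons of CGF mice (0.30) and Ftl1 in fibroblasts of SPF mice (-0.98) and changed no other call. Low counts limited Trf, which was tested only without a filter on low counts, and Slc40a1 outside endothelial nuclei, microglia and excitatory neurons.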
